A study of Mus musculus with 2 samples.

Results

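Prostaglandins are short-range lipid signals. Phospholipases release arachidonic acid from membranes, the cyclooxygenases Ptgs1 and Ptgs2 turn it into a common intermediate, and terminal synthases make prostaglandin E2 (Ptges, Ptges2, Ptges3), prostacyclin (Ptgis) or prostaglandin D2 (Ptgds) from that intermediate. Hpgd, 15-hydroxyprostaglandin dehydrogenase, starts their breakdown, and Ptger2 and Ptger4 encode the receptors EP2 and EP4, which answer prostaglandin E2 by raising cyclic AMP. In the eye, prostaglandin E2 is one of the soluble products of pigment epithelium that have been studied as inhibitors of T cells. These 10 genes were taken from a list of the pathway and followed through every probe set annotated to them, among 18193 genes that had a probe set of their own on the array.

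RNA came from 2 primary mouse cultures of the retinal pigment epithelium (RPE), which lies behind the photoreceptors. One culture was left untreated and the other received interferon gamma (IFNg) at 100 U/ml for 24 h. The mouse strain, age and number of animals are not given in the labels. Both cultures had 14 days in DMEM with 20% serum and a serum-free night before RNA extraction, whose overlap with IFNg the labels do not state, and were described as 95% cytokeratin-positive. Each was hybridised to 1 array, so no difference here has a replicate or a p-value, and having 1 array per group limits the precision. "Higher" and "lower" describe these 2 arrays, whether or not the cultures differed for other reasons, and fewer cells of a type cannot be told apart from less RNA per cell.

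Values are probe-set signal intensities on a linear scale. Signals under 20.4, the pooled median of all probe sets, were set to that floor before log2 ratios of IFNg over untreated were taken. A gene took the value of its brightest probe set, and the other probe sets of the prostaglandin genes are given beside it. For genes of the other lists, further probe sets are given where they bear on a 2-fold difference. Between probe sets of the same gene the log2 ratio varied with an SD of 0.44 over 4422 genes. This is a technical spread only, within the same 2 arrays, and does not measure variation between cultures. Across different genes of similar signal the SD of the log2 ratio was wider, from 0.69 to 0.86.

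As a check of the treatment, 9 of 9 matched IFNg-responsive genes had signals at least 2-fold higher on the IFNg array, beside 8.81% of all genes. Their median log2 ratio was at least 4.36. Of these genes 7 were above the floor untreated, and the ratios of the rest are bounds. This list too was chosen with earlier results of these data known. The keratin genes Krt8 (signals 453.5 and 459.9, untreated first) and Krt18 (1390.4 and 2445.9) and the transcription factor Otx2 (410.9 and 388.5) were well above the floor, while the RPE genes Rpe65 and Best1 were at the floor on both arrays. Over 10 RPE markers the summed signal was 2568.2 untreated and 3493.7 with IFNg, with Krt18 alone higher by more than that difference. Of these markers 0 were at least 2-fold higher and 3 at least 2-fold lower. The 3 were Rlbp1 (73.2 and 35.1), Ttr (89.4 and 29.4) and Tyrp1 (53.1 and 21.7). Among all genes 4.48% were at least 2-fold lower, and 10.7% of those with a geometric mean signal of 32 to 64. Further Ttr probe sets were lower by at least 1.47-fold to at least 2.27-fold. Further Tyrp1 probe sets went both ways, at least 2.74-fold lower (55.9 and, under the floor, 10) and at least 1.26-fold higher (17.7, under the floor, and 25.7). Fibroblast genes were bright in both, with summed signals of 42396.8 and 40879.0 over 7 markers and none past 2-fold. Macrophage markers summed to 672.7 and 433.1 over 10 genes, with Ptprc at 20.8 and 7.0 and Itgam at the floor on both arrays. Of these markers 2, Csf1r and Laptm5, were at least 2-fold lower. Their other probe sets above the floor on both arrays lay within 2-fold. Those had log2 ratios of -0.56 and -0.28 for Csf1r and -0.55 and -0.19 for Laptm5. All of the other marker lists were dim, with summed signals from 62.3 to 195.7: endothelial cells, T, B and NK cells, melanocyte and Schwann cells, and mast cells and platelets. The part of any of these cells in the prostaglandin values was not tested.

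Of the 10 genes, 8 had a probe set that names them alone, and all 8 lay above the floor on both arrays. Ptgs2 and Hpgd were higher with IFNg by more than 2-fold, Ptger4 was lower by more than 2-fold, and Ptges, Ptges2, Ptgis, Ptgds and Ptger2 lay within 2-fold. Across the 12753 genes that cleared the floor on either array, 8.81% were at least 2-fold higher and 4.48% at least 2-fold lower, which stands beside 2 of 8 and 1 of 8 here. The median log2 ratio of the 8 genes was -0.26, against -0.12 over the 12753. Ptges3 was measured only through probe sets that it shares in the annotation with its pseudogene Ptges3-ps, and Ptgs1 was matched to no probe set by name and is not analysed here.

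**Figure D1:**
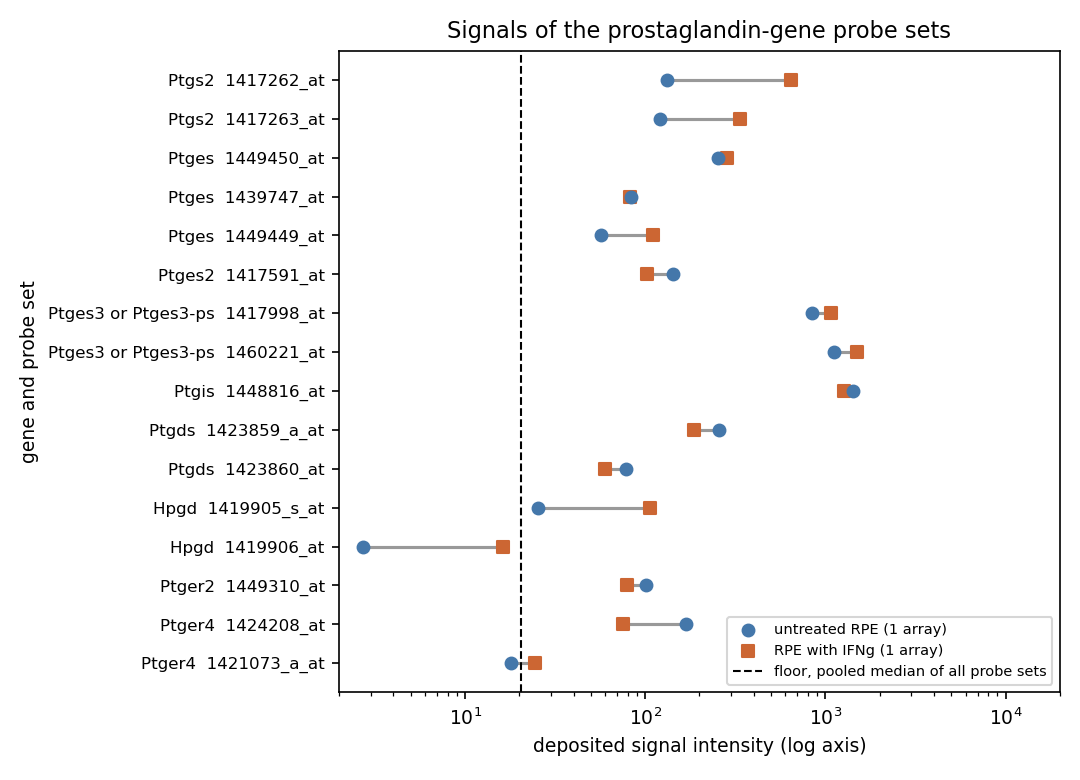
Deposited signal intensity (log axis) of the 16 probe sets annotated to the prostaglandin genes, 1 row per probe set, with a circle for the untreated array, a square for the IFNg array and a dashed line at the floor of 20.4. Both Ptgs2 probe sets shift to the right with IFNg, from 132.4 to 647.3 and from 121.3 to 334.3, and the 2 Ptger4 probe sets move in opposite directions.

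The stretches of DNA just before the start of the 3 genes past 2-fold are shown because these are the promoters of the genes whose signal differed most. They are the 250 bases before the RefSeq start in build GRCm38.p6, read 5′ to 3′ on the gene's strand, with capitals marking the motif matches described next.
Ptgs2, chr1:150099781-150100030, plus strand: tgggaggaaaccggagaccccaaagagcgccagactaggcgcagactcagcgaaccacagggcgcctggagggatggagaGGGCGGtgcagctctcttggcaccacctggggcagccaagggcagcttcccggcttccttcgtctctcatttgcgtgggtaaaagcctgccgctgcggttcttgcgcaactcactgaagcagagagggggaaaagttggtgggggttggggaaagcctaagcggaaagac
Hpgd, chr8:56294302-56294551, plus strand: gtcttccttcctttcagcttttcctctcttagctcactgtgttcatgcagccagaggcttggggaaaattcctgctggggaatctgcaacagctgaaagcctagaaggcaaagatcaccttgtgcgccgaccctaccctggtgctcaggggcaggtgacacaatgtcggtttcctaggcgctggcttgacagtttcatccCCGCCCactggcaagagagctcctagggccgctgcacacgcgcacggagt
Ptger4, chr15:5244188-5244437, minus strand: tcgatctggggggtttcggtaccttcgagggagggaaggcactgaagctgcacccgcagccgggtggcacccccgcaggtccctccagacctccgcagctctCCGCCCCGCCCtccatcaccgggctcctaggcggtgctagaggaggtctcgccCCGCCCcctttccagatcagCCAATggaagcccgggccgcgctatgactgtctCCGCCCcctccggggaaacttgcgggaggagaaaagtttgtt

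In the window from 250 bases before to 50 bases after the start, 9 short motifs were searched on both strands, for the 9 of 10 listed genes that the RefSeq promoter table holds. The 3 promoters share a GC box (GGGCGG), which 35.7% of all 32851 promoters of this length hold. It is no mark of these 3 genes, since 5 of the 9 promoters hold it, among them those of Ptges and Ptges3. Ptgs2 has 1, from 170 to 165 bases before the start. Hpgd has 1 on the opposite strand, from 50 to 45 bases before the start. Ptger4 has 4, all on the opposite strand, of which 2 overlap by a base, and also a CCAAT box (CCAAT, in 37.4% of promoters) from 75 to 71 bases before the start.

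Past the annotated start, Ptgs2 has the core of a cyclic AMP response element (TGACG, on the opposite strand, 14 to 18 bases after the start, in 20.8% of promoters), which overlaps an E-box (CACGTG, 17 to 22 bases after the start, in 7.15%). Hpgd has the letters searched as a TATA box (TATAAA, anywhere in the window in 13.6% of promoters) 5 to 10 bases after its start. A TATA box lies before the start, so this match is not one for that start. The core of an interferon-stimulated response element (GAAANNGAA, in 8.56% of promoters) was not matched in the window of any of the 9 genes. The letters searched for NF-kB (GGANTTTCC, in 1.25%) were not matched in them either, and those for C/EBP (TTNNGCAAT, in 2.18%) were matched only in Ptger2, after the start. The Ptgs2 stretch above holds ttgcgcaac, which differs from the C/EBP letters only in the last base. A missing match to fixed letters therefore does not show that a site is absent. These matches describe the letters of the windows and no binding.

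Ptgs2, the inducible cyclooxygenase that commits arachidonic acid to prostaglandin synthesis, had signals of 132.4 (untreated) and 647.3 (IFNg). That is 4.89-fold higher, a log2 ratio of 2.29 and 5.17 times the technical SD. A second probe set gave 121.3 and 334.3, which is 2.76-fold higher, a log2 ratio of 1.46. The probe sets pointed the same way but differed in the size of the ratio. By its brighter probe set Ptgs2 moved from the 80.7th percentile of all probe sets on the untreated array to the 94.6th with IFNg, and its ratio ranked 111 from the top among the 12753 genes. Among 1639 genes of similar brightness, with a geometric mean signal of 256 to 512, 8.66% were at least 2-fold higher.

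The 5 genes named next had the pair of signals nearest to that of Ptgs2, by the Euclidean distance of the log2 signals over the 2 arrays, among 10446 genes above the floor on both. They were Casp12 (132.8 and 706.2), C2 (146.5 and 653.0), Tmem140 (115.9 and 736.2), Xdh (160.9 and 704.0) and Slc30a4 (164.9 and 579.1), at distances of 0.13 to 0.36.

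**Figure D2:**
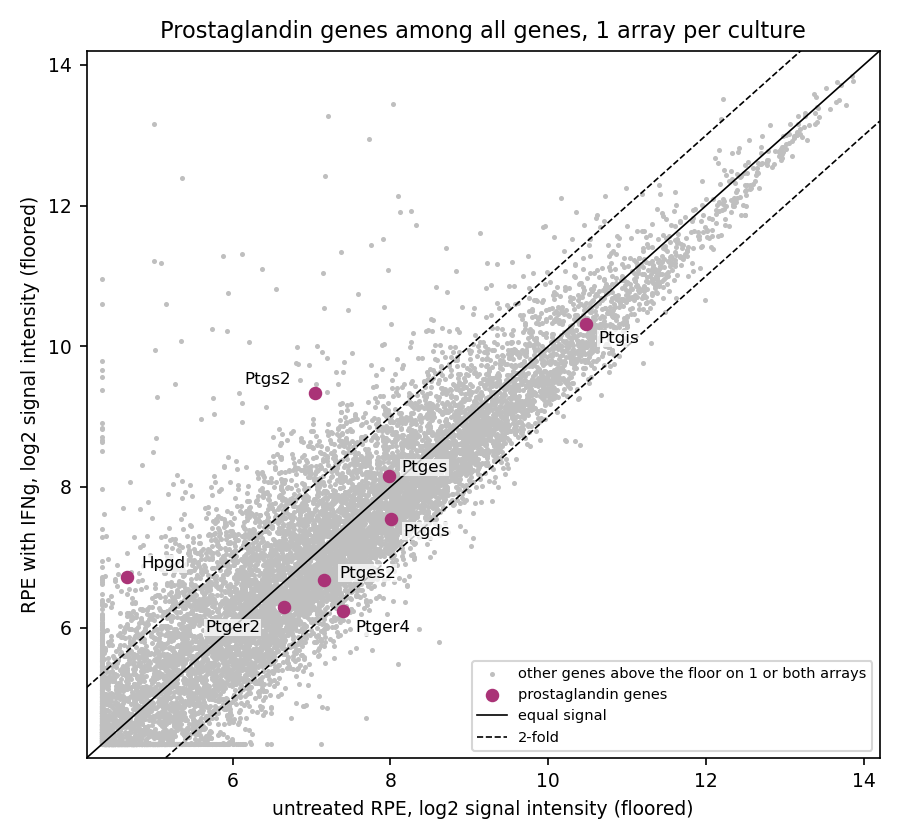
Log2 signal intensity of each gene on the IFNg array against the untreated array, after the floor, with the 8 prostaglandin genes in colour, a solid line at equal signal and dashed lines at 2-fold. Ptgs2 and Hpgd lie above the upper dashed line, Ptger4 lies just below the lower one, and the other 5 lie between them.

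The synthases that act after the cyclooxygenases did not follow Ptgs2 past 2-fold. Ptges, the membrane-bound prostaglandin E synthase that is commonly induced together with Ptgs2, had signals of 252.5 and 284.8 (log2 ratio 0.17) by its brightest probe set. Its other probe sets disagreed with each other in size, with 57.0 and 110.4 (1.94-fold higher) for one and 83.5 and 82.2 (log2 ratio -0.02) for the other. All 3 were above the floor on both arrays, and none reached 2-fold.

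Ptges2, a second membrane-associated prostaglandin E synthase, gave 143.4 and 102.8, a log2 ratio of -0.48 from its only probe set. The probe sets shared by Ptges3 and Ptges3-ps were among the brightest of the pathway, at 837.6 and 1068.5 (log2 ratio 0.35) and at 1121.4 and 1507.0 (0.43). Ptges3 encodes the cytosolic prostaglandin E synthase, also known as the Hsp90 co-chaperone p23, and its signal cannot be separated from that of the pseudogene here. Across the 3 prostaglandin E synthases, the ratios thus lay on both sides of 0 and within 2-fold for every probe set.

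Ptgis, prostacyclin synthase, had the highest signals of the genes with a probe set of their own, 1419.9 and 1275.5 (log2 ratio -0.15). It stood at the 97.5th percentile of the untreated array and the 97.3rd of the IFNg array, so its place hardly differed between them. Ptgds, which makes prostaglandin D2 and as a secreted lipocalin also carries retinoids, gave 257.0 and 186.8 (log2 ratio -0.46), and its second probe set 77.7 and 59.9 (-0.38). Both Ptgds probe sets were lower with IFNg by about the technical SD. Signals of different probe sets are not on 1 scale, so these percentiles describe where each probe set lay on its array and not how much RNA of one gene there was against another.

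Hpgd, which oxidises prostaglandins to inactive products, was 4.18-fold higher with IFNg by its brighter probe set, with signals of 25.3 and 105.8 and a log2 ratio of 2.06. Its ratio ranked 141 from the top. The untreated signal lies just above the floor, and the ID of this probe set marks sequence shared by several transcripts. The second Hpgd probe set read 2.7 and 16.3, under the floor on both arrays, so that it gives no ratio. In the class of dim genes to which Hpgd belongs, with a geometric mean signal of 32 to 64, 13.8% of 1951 genes were at least 2-fold higher. With the floor at the pooled 75th percentile of 86.6, the log2 ratio of Hpgd is at least 0.29, and without probe sets that mark shared sequence it is at the floor on both arrays.

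Among the receptors, Ptger4 (EP4) was 2.25-fold lower with IFNg, with signals of 168.8 and 75.1 and a log2 ratio of -1.17, which is -2.64 in units of the technical SD. A second, dim Ptger4 probe set gave 18, under the floor, and 24.4, so that it was higher by at least 1.20-fold and went the other way. With all probe sets averaged, the log2 ratio of Ptger4 was -0.46. Among 2285 genes with a geometric mean signal of 64 to 128, 6.26% were at least 2-fold lower. Ptger2 (EP2), the other receptor that raises cyclic AMP, gave 100.7 and 78.7 from its only probe set (log2 ratio -0.36). The difference in ratio between the receptors was not tested.

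**Figure D3:**
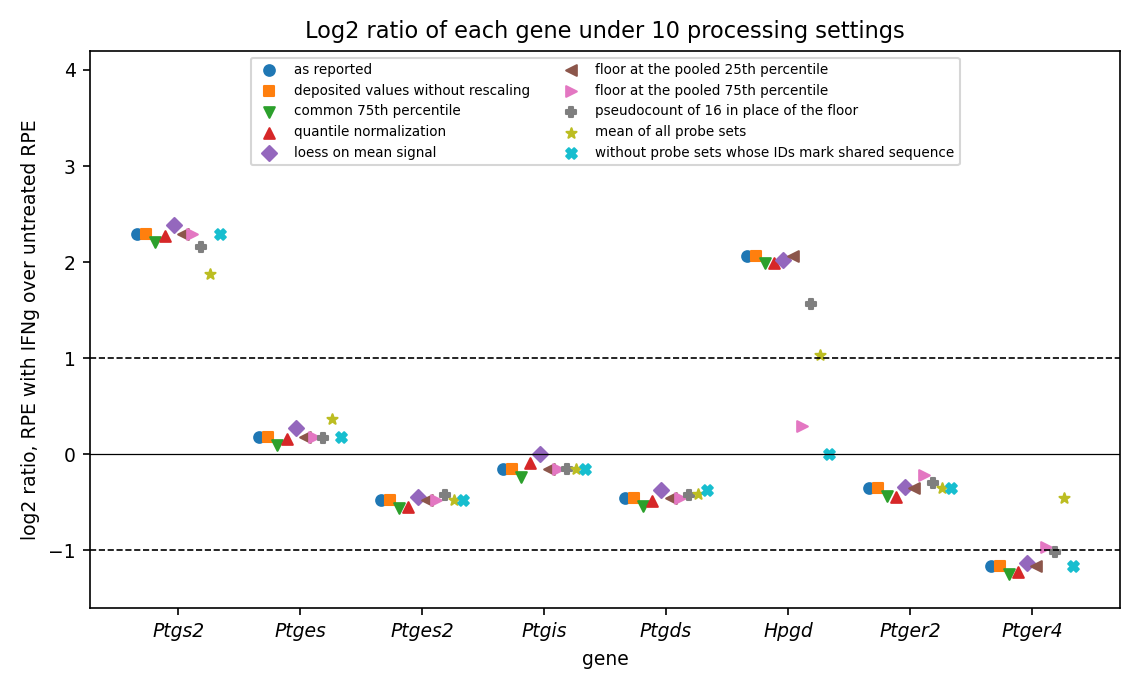
Log2 ratio of IFNg over untreated for each of the 8 genes under 10 processing settings, 1 marker per setting, with dashed lines at 2-fold in each direction. Ptgs2 stays between 1.88 and 2.39, Hpgd ranges from 0 to 2.06 and Ptger4 from -1.25 to -0.46, and the other 5 stay within 2-fold.

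Around these genes, 7 lists covered the rest of the pathway and its surroundings, with 102 of 107 genes matched. On 1 or both arrays 84 of them were above the floor, of which 12 were at least 2-fold higher and 5 at least 2-fold lower, beside 8.81% and 4.48% of all genes. With all probe sets averaged per gene the counts were 6 and 3.

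Upstream of the cyclooxygenases, 4 of 17 measured phospholipase and arachidonate-release genes were at least 2-fold higher and 2 at least 2-fold lower, with a median log2 ratio of -0.45. Pla2g4a, the cytosolic phospholipase A2 that supplies arachidonic acid to Ptgs2 in many cells, had signals of 227.0 and 589.4 (2.60-fold higher) from its only probe set. Plaat3, a phospholipase of adipose tissue and other cells, read 382.1 and 1828.6 (4.78-fold higher), and its second probe set read 315.0 and 1260.2. Pnpla8, a calcium-independent phospholipase, was 2.81-fold higher and Plaa, the phospholipase A2-activating protein, 2.29-fold higher, each with dim probe sets beside it that were under the floor untreated. In the other direction stood the secreted Pla2g5 (108.4 and 48.4, 2.24-fold lower) and the calcium-independent Pla2g6 (167.8 and 81.6, 2.06-fold lower). Further Pla2g6 probe sets were at least 2.12-fold lower (43.2 and, under the floor, 11.6) and 1.36-fold lower (30.4 and 22.4). Of the genes within 2-fold, the brightest were Pla2g12a (log2 ratio -0.45), Pla2g15 (-0.61) and Mgll (-0.55), which hydrolyses monoacylglycerols. A second Pla2g15 probe set read 157.4 and 63.7, which is 2.47-fold lower.

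None of 7 measured genes for other prostanoid synthases and reductases passed 2-fold, and the median log2 ratio was -0.21. The brightest were the glutathione transferases Gstm2 (-0.40) and Gstm1 (-0.21) and the carbonyl reductase Cbr3 (-0.11). Hpgds, the haematopoietic prostaglandin D synthase, was under the floor in both cultures. Thromboxane synthase, Tbxas1, read 9.1, under the floor, and 20.9, just above it.

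Among 8 genes of prostanoid breakdown and transport, 2 were at least 2-fold higher and none 2-fold lower, with a median log2 ratio of -0.09. Ptgr2, a reductase that acts after Hpgd, just passed 2-fold with 64.3 and 130.0, but its other probe sets above the floor on both arrays had log2 ratios of 0.44, -0.03 and -0.71. Slco3a1, a transporter of the organic anion family that can carry prostaglandins, was 2.45-fold higher (180.7 and 442.5), with 3.80-fold and 1.57-fold for its further probe sets. Slco2a1, the prostaglandin transporter that brings prostaglandins back into the cell, read 292.1 and 278.3. The reductase Ptgr1 was the brightest gene of this list, with 4315.1 and 3026.5 (log2 ratio -0.51), and Zadh2, another prostaglandin reductase, had a log2 ratio of 0.59.

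The list of other prostanoid receptors also holds the nuclear receptors Pparg and Ppard, and Ptgfrn, which is not itself a prostanoid receptor. In this list 7 of 7 measured genes had lower signals with IFNg, by a median log2 ratio of -0.64, and 3 of them passed 2-fold. All 7 ratios stayed below 0 under each scaling tried, though as reported those of Ptgfr, Ptgir and Ptgfrn were smaller than the technical SD. Of all 12753 genes 57.4% had a ratio below 0. Of the 3 past 2-fold, the thromboxane receptor Tbxa2r was 2.29-fold lower (84.6 and 36.9). Ptger1, the EP1 receptor, was at least 2.32-fold lower (47.4 and, under the floor, 13.2). Pparg, a nuclear receptor that a prostaglandin D2 derivative can activate, was 2.85-fold lower (79.2 and 27.8). A second Ptger1 probe set (23.2 and, under the floor, 11.1) gave a bound of only 1.14-fold lower. All 3 were dim with IFNg, and with the floor at the pooled 75th percentile none of the list passed 2-fold. Ptgfrn (log2 ratio -0.41), Ppard (-0.64) and the prostaglandin F receptor Ptgfr (-0.10) lay within 2-fold. Further Ptgfr probe sets disagreed in direction, from -0.72 to at least 0.45. Ptger3, Ptgdr and Ptgdr2 were at the floor on both arrays.

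**Figure D4:**
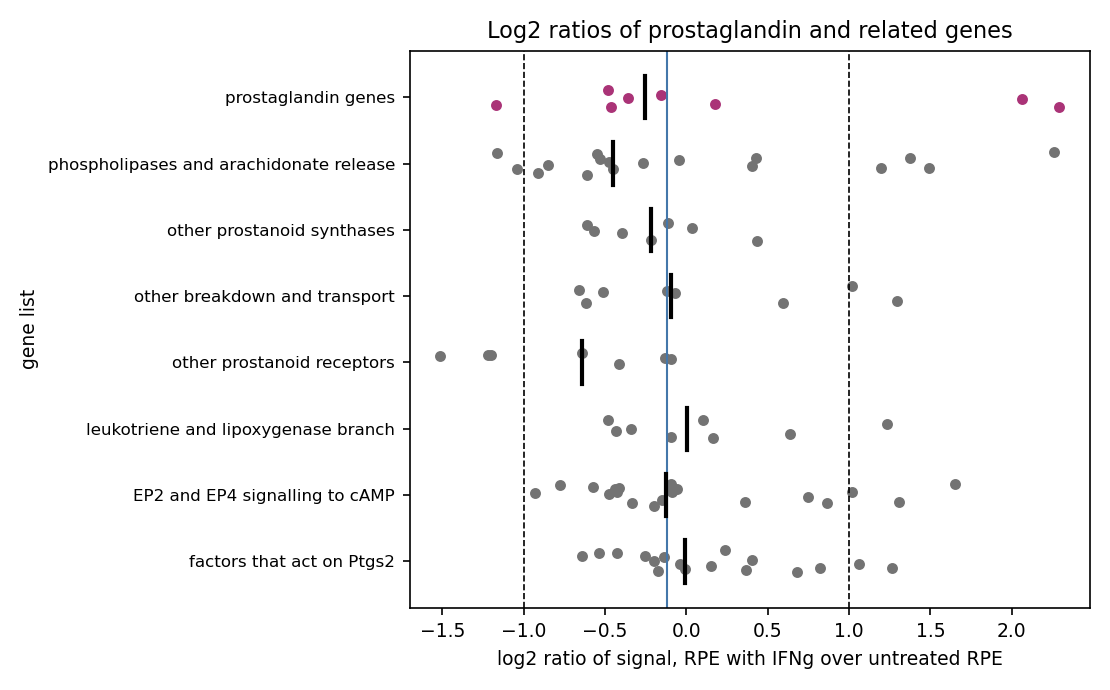
Log2 ratio of IFNg over untreated for each gene that cleared the floor on either array in 8 lists, 1 point per gene, with a black bar at each list's median, a blue line at the median of all genes (-0.12) and dashed lines at 2-fold. Points of genes with 1 array at the floor are bounds, and the 7 measured genes in the list of other prostanoid receptors all lie below 0.

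In the neighbouring leukotriene and lipoxygenase branch, 1 of 8 measured genes passed 2-fold, the leukotriene receptor Cysltr1, with 65.6 and 154.3 (2.35-fold higher) and a second probe set at 30.5 and 198.2. The median log2 ratio there was 0.01, and Lta4h, which makes leukotriene B4, read 717.8 and 568.0. Alox5 and Alox15 were at the floor on both arrays.

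Of 20 measured genes that carry the EP2 and EP4 signal through cyclic AMP, 3 were at least 2-fold higher and none 2-fold lower. Their median log2 ratio was -0.12. With a common 75th percentile or with quantiles, 2 of the list were higher and 1 lower. With all probe sets averaged 1 was higher and none lower. The adenylyl cyclase Adcy4 was higher by 2.48-fold from an untreated signal of 20.8, next to the floor. Creb1, a transcription factor that cyclic AMP activates, was 3.15-fold higher by its brightest probe set, while the 3 others above the floor on both arrays had log2 ratios of 0.60, 0.45 and -0.28. Crem, a related factor, read 64.7 and 130.9 (2.02-fold higher) and was 2.22-fold higher by a second probe set. The brightest genes within 2-fold were Gnas (log2 ratio -0.15), Prkar1a (-0.57) and Prkaca (-0.78), the stimulatory G protein and subunits of protein kinase A. By their brightest probe sets Prkacb (log2 ratio 0.36) and Arrb2 (-0.20) also lay within 2-fold. A dimmer Prkacb probe set was at least 3.09-fold lower (63 and, under the floor, 18.2). A dimmer Arrb2 probe set was at least 2.70-fold lower (55.1 and, under the floor, 20).

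Of 17 measured factors known to act on the Ptgs2 gene or its messenger RNA, 2 were at least 2-fold higher and none 2-fold lower, with a median log2 ratio of -0.01. Nfat5 was 2.40-fold higher (65.3 and 156.9), with 3.67-fold for a further probe set, and the stress factor Atf3 2.09-fold (71.0 and 148.2). With a common 75th percentile, with quantiles or with all probe sets averaged, 1 of the list was at least 2-fold higher and none lower. The list is not complete. Irf1, a transcription factor counted with the IFNg-responsive genes, is not in it and read 319.1 and 3391.1 (10.6-fold higher). Cebpb (1396.4 and 1359.6), Cebpd (2196.2 and 1946.6) and the NF-kB subunit Rela (837.4 and 833.8) had nearly equal signals on the arrays. The RNA-binding proteins Zfp36 (log2 ratio 0.24), which promotes decay of the Ptgs2 message, and Elavl1 (-0.53), which stabilises it, lay within 2-fold as well. So did Nfatc1 by its brightest probe set (log2 ratio -0.43), but another Nfatc1 probe set read 94.6 and 46.6, which is 2.03-fold lower.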

How the data were processed

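Biotin-labelled RNA of 2 cultures was hybridised to 1 array each, per the labels' protocols, and the cultures were grouped by title. The deposited values are signal intensity per probe set, from 0.1 to 14895.6 over 45101 probe sets. The sources used here do not name the summarisation or background correction and hold no detection calls. Each deposited column has a 2% trimmed mean of 100.001.

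After 64 control probe sets were left out, each array was brought to the same trimmed mean (by factors of 1.00008 and 0.999924), floored at the pooled median and put on the log2 scale. The floor stands in for detection calls. The background left in a dim signal is unknown, which makes the size of such ratios uncertain. Where 1 array is at the floor, the ratio is a bound. Genes were named from the platform annotation of 2016, in which 34945 probe sets name 1 gene, 932 several and 9160 none. Older symbols were matched through synonyms of RefSeq's GRCm38.p6 gene table. A gene counts as 2-fold when its brighter array is above the floor.

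There was no test. The members and lists were chosen with earlier results of these data known. Outside the 10 genes, named genes are those past 2-fold in each list, up to 3 of the brightest others and the 5 nearest to Ptgs2. Genes named beyond these, at the floor or within 2-fold, were chosen after their values were seen, and so was Irf1. The other genes of the treatment check are not named. The floor, the choice of probe set and the fold calls were checked on a copy of the untreated array. In it, differences without noise were set in bright genes, so neither the scaling nor differences of dim genes were checked. Tables were handled with pandas 2.3.3 and numpy 2.4.6 in Python 3.11.15, trimmed means came from scipy 1.17.1, loess from statsmodels 0.14.6, and figures from matplotlib 3.10.9. Alternatives changed the scaling, the floor, the choice of probe set and the fold threshold. The result for 1 of the motifs searched is not reported here.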

Additional observations from a re-analysis of the deposited data

How the results depend on the processing

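The scalings (deposited values, a common 75th percentile, quantiles, a loess curve) kept Ptgs2 and Hpgd at least 2-fold higher and Ptger4 at least 2-fold lower. Of the prostaglandin genes, 1 (Ptgs2) was 2-fold higher and 0 lower with the floor at the pooled 75th percentile, and 1 higher without probe sets that mark shared sequence. With all probe sets averaged 0 were 2-fold lower (Ptger4 had a log2 ratio of -0.46), and at 3-fold 0 were lower. Of the other pathway genes, 14 were lower with the floor at the pooled 25th percentile, 6 higher and 0 lower with it at the 75th, 6 higher and 3 lower with probe sets averaged, 3 lower without shared probe sets, 15 lower at 1.5-fold, and 2 higher and 0 lower at 3-fold. Fewer genes pass a higher floor or fold by construction, and other causes were not tested. Of all genes clearing the floor on either array, 2258 (13.6%) were higher and 2059 (12.4%) lower with the floor at the 25th percentile. With it at the 75th they were 574 (7.39%) and 163 (2.10%), and with probe sets averaged 591 (4.63%) and 357 (2.80%). Without shared probe sets they were 1021 (9.24%) and 493 (4.46%), and there 91 of the other pathway genes were matched instead of 102. At 1.5-fold they were 2287 (17.9%) and 2381 (18.7%), and at 3-fold 336 (2.63%) and 59 (0.463%). The scalings moved the median log2 ratio of all genes only between -0.18 and -0.07. Signals near the floor limit what can be said of Hpgd and the receptors. No paired analysis was possible because each group is 1 array.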
